A study of Homo sapiens with 4 samples.

Results

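Interferon-stimulated genes and sensors were chosen as 43 listed symbols, of which 42 were found among the 60623 genes of the deposited table. STING1, which encodes the adaptor of cytosolic DNA sensing, was not listed under that symbol, and its older symbol TMEM173 was already a listed name, so it was counted once. The cells were T24, an established line from a human bladder cancer, and the RNA-seq data comprised 2 control libraries and 2 from CBX7-overexpressing cells. CBX7 is a chromobox protein of the Polycomb repressive complex that binds methylated histone H3. All cells grew in RPMI medium with serum, no library was labelled as treated with an interferon, a virus or a nucleic acid, and the labels give neither the time of expression nor what the control cells received. The methods of the study put full-length CBX7 in a pCDH vector with a FLAG tag, under a heading on stable cell lines. What vector delivery alone does to these transcripts was not tested, as the treatment of the controls is not given. The labels do not say whether the libraries of a group came from separate cultures, so p-values measure the spread between these libraries, which may be technical. The comparison asks which of these transcripts differ in level when CBX7 is overexpressed.

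Type I interferons bind the IFNAR1 and IFNAR2 receptor, whose kinases JAK1 and TYK2 phosphorylate STAT proteins such as STAT2. STAT2 and IRF9 are parts of the complex ISGF3, which binds interferon-stimulated response elements and switches on interferon-stimulated genes. Many of those genes are also transcribed at a basal level in unstimulated epithelial cells, and several encode the sensors of foreign or misplaced nucleic acid that start interferon production. Their products block entry or replication of viruses (IFITM, MX and IFIT proteins, OAS enzymes, PKR), sense RNA or DNA (RIG-I, MDA5, cGAS) or modify other proteins (ISG15).

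The overexpressed gene, CBX7, had 261.4 and 203.3 expected counts in control replicates 1 and 2 and 42852 and 35641 in CBX7 replicates 1 and 2, a log2 fold change of 7.35 (SE 0.18, adjusted p = 0.000584, edgeR's quasi-likelihood test). Summed counts per library were between 20800910 and 25135488, and a gene without counts may still have had up to 3, which is 0.124 to 0.143 CPM here (library-size-scaled counts, with TMM factors). Such limits cover counting error only. The keratins KRT7, KRT8, KRT18 and KRT19, markers of an epithelial line, summed to between 3149 and 3729 TPM (relative transcript abundance per gene length). KRT19 gave little of this sum, with 7.64 and 6.64 TPM in control cells and 17.3 and 15.1 TPM in CBX7-overexpressing cells. Of 7 immune cell markers, 3 were at 0 in all libraries and 6 had at most 3 counts in any, the exception being CD14 with 14 to 29 counts, and 4 stromal and endothelial markers summed to between 0.68 and 1.4 TPM. CBX7 replicate 1 stood apart from the other libraries in a trend with gene length. It is described after the first comparisons of the groups, which were made without removing it. RNA was taken from whole cultures, so fewer cells with a transcript and less of it per cell cannot be told apart.

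Many members held a sequence feature that the list did not use. In RefSeq promoters of GRCh38.p14, which run from 250 bases before to 50 bases after a gene's start, 32 of the 42 members had an entry. The core of an interferon-stimulated response element, searched as 2 copies of GAAA with 2 bases of any kind between them on either strand, was present in 22 of these 32 (68.8%) and in 1195 of 27305 genes with an entry (4.38%). The gamma-activated site, the element of the interferon-gamma response, searched as TTC and GAA with 3 bases of any kind between them, was present in 10 members (31.2%) and in 9.38% of all genes. The motifs were searched separately, so their matches may overlap. Sequences of 60 bases are given for 4 members with high or middle levels, in which the core lies between 25 and 114 bases before the start, and for 3 members that differ in level by orders of magnitude. The windows are chr11:320861-320920 (minus strand) for IFITM3, chr1:1013365-1013424 (plus strand) for ISG15, chr19:17405720-17405779 (minus strand) for BST2 and chr10:89392495-89392554 (plus strand) for IFIT1. They are chr1:78649746-78649805 for IFI44, chr1:78620350-78620409 for IFI44L and chr2:6877607-6877666 for RSAD2, all on the plus strand. Capitals mark matches to the core, read 5′ to 3′ on the strand of the gene, where TTTC is the core on the opposite strand.
IFITM3: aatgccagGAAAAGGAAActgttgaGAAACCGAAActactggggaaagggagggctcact
ISG15: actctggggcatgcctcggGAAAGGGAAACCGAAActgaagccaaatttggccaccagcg
BST2: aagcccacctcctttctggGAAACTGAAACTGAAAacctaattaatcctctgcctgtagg
IFIT1: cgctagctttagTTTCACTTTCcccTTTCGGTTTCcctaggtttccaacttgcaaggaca
IFI44: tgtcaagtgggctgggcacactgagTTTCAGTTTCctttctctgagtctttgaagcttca
IFI44L: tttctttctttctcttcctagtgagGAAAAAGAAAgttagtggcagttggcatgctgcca
RSAD2: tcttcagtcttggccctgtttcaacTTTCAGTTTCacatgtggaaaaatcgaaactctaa
A match is a description of the letters and not a measured binding site. In control cells the median level of the 22 members with the core was 12.0 TPM (0.06 to 500.4) and that of the 10 without it 14.7 TPM (0.175 to 38.05). Members at the top and the bottom of the order of levels thus both held the core, as IFITM3 and RSAD2 show above.

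Levels spanned a wide range, from 0.06 to 500.4 TPM for the mean of the control libraries, with a median of 12.7 TPM over the 42 members and of 12.4 TPM over all 14862 genes tested. Of the members, 5 exceeded 100 TPM, 13 exceeded 20 TPM, 25 exceeded 10 TPM and 37 exceeded 1 TPM. The 5 most abundant members held between 70.8% and 79.1% of the summed TPM of all 42, which came to between 1598 and 1954 TPM. Of 41 pairs of neighbours in the order of levels, 23 had control values that overlapped. IFITM3 did not overlap ISG15 below it, while ISG15 and BST2 overlapped. No test was made on this order.

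**Figure D1:**
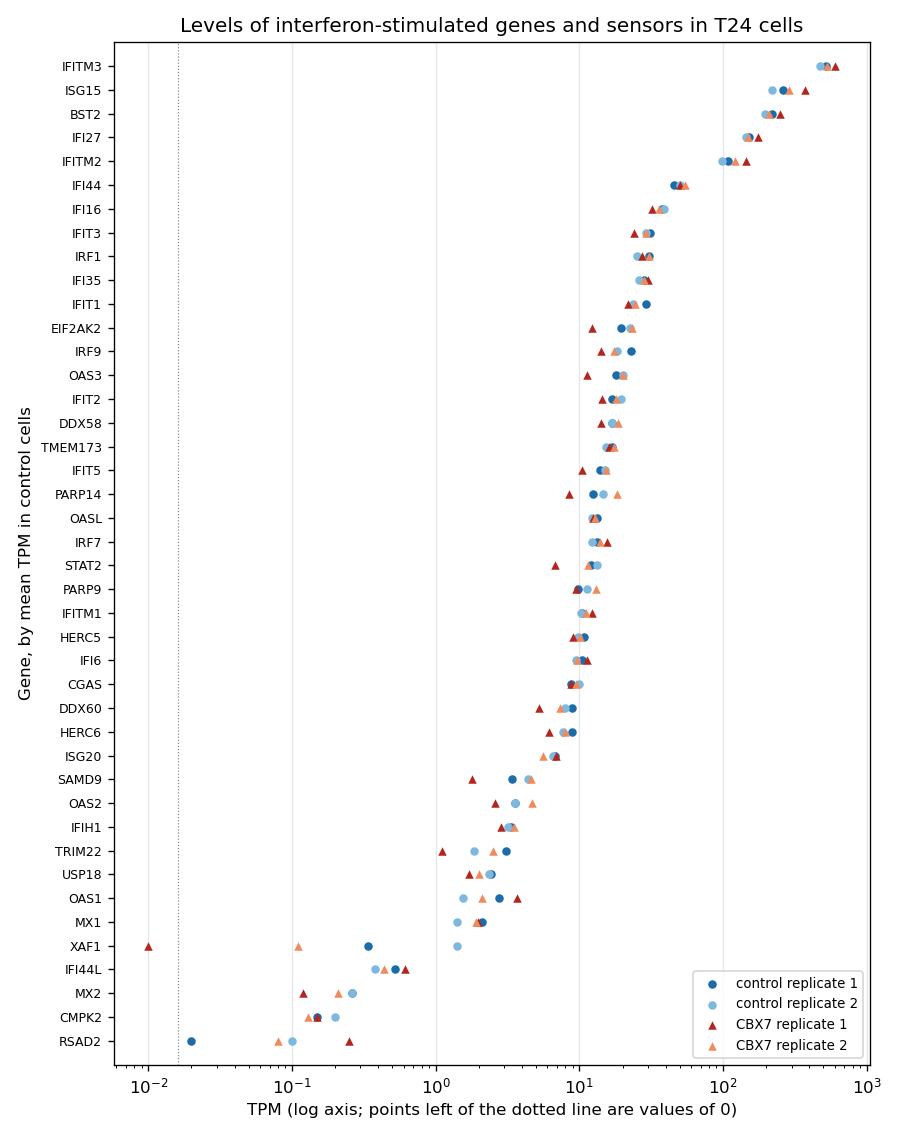
Deposited TPM (log axis) of the 42 members in each of 4 libraries, ordered by the mean of the control libraries, with circles for control and triangles for CBX7. Levels run from about 500 TPM for IFITM3 to under 1 TPM for the 5 lowest genes, and the single point left of the dotted line is XAF1, at 0 in CBX7 replicate 1.

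Of the 42 members, 38 passed the filter on low counts and 4 (XAF1, MX2, CMPK2 and RSAD2) did not. None of the 38 passed an adjusted p of 0.05 in edgeR's quasi-likelihood test, where 3 of 14862 genes (0.0202%) did, and the adjusted p of each member was 0.951 or more. At an unadjusted p under 0.05 there were 0 members against 4.74% of all genes tested. DESeq2's Wald test also called 0 members against 0.451% of all genes, with 2 members (5.26%), ISG15 and IFITM2, at an unadjusted p under 0.05 against 2.88% of all genes. The log2 fold change was positive for 21 members and negative for 17. Its median was 0.016, beside 0.0017 for all genes tested, and 36 of the 38 lay within 0.5 of 0. The range ran from -0.34 (OAS2) to 0.63 (ISG15), and the median SE was 0.19 (0.13 to 0.44), which sets how small a change could be detected. When CBX7 replicate 2 was left out, so that CBX7 replicate 1 alone stood for the group, 15 of 39 members tested (38.5%) passed the adjusted threshold (8 higher and 7 lower), as did 35.5% of all genes in that fit, a share near that of the members. When any other library was left out, 0 members passed. For one gene, the smallest p that permuting 2 against 2 libraries allows is 0.333 (exact, two-sided).

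On the log2 CPM scale both CBX7 libraries lay above both controls for 5 members (13.2%; ISG15, IFITM2, IFI44, CGAS and MX1) and below both for another 5 (13.2%; IFI16, IFIT2, STAT2, OAS2 and USP18). The shares among all genes tested were 15.4% above and 14.8% below. The groups overlapped for the remaining 28 members. The members' shares were thus close to the background. On the deposited TPM scale the counts were also 5 above and 5 below, against 12.2% and 17.4% of all genes, but the genes were partly others. ISG15 and IFITM2 (higher) and IFI16, STAT2 and USP18 (lower) did not overlap on either scale, while IFITM3, IFITM1 and IRF7 (higher) and IRF9 and DDX60 (lower) did not overlap in TPM alone.

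The 2 CBX7 libraries differed from each other by more than the controls did. The median absolute log2 difference over the 38 members was 0.26 between the CBX7 libraries and 0.16 between the controls. In CBX7 replicate 1, the difference from the control mean ran with gene length. For 8 members under 1300 bases its median was 0.57 (0.35 to 0.95), and for 6 members over 5000 bases it was -0.56 (-0.86 to 0.19). In CBX7 replicate 2 the same medians were -0.011 and 0.14. Spearman's rho with length over the 38 members was -0.82 in CBX7 replicate 1 and 0.12 in CBX7 replicate 2, and over all 14862 genes -0.52 and 0.20. Genes of one library share its preparation, so these are descriptions with no test. In CBX7 replicate 2, 37 of the 38 members lay within 0.3 of the control mean and the exception was IFI44L, while in CBX7 replicate 1 only 19 did, with 11 above and 8 below.

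**Figure D2:**
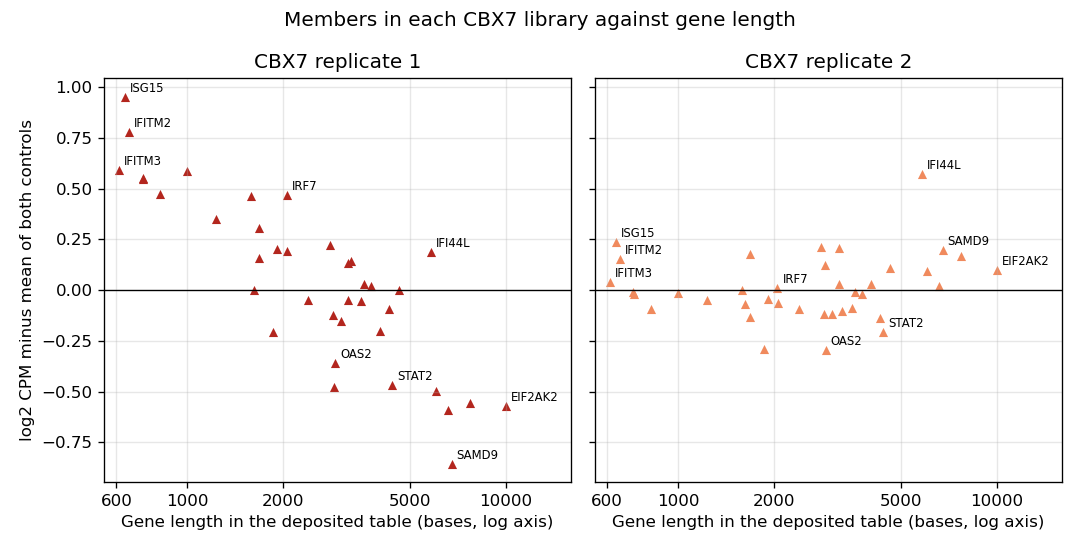
Log2 CPM of each of the 38 tested members in CBX7 replicate 1 (left) and CBX7 replicate 2 (right) minus the mean of both controls, against gene length in bases (log axis). Short genes such as ISG15 lie above 0 and long genes such as SAMD9 below 0 in replicate 1, while in replicate 2 37 of 38 lie within 0.3 of 0.

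The same test was therefore also run after removing, library by library, the dependence on length and GC content (the length and GC correction). The median absolute difference between the CBX7 libraries then fell to 0.12. Again 0 members passed the adjusted threshold (lowest adjusted p 0.480, edgeR's quasi-likelihood test), against 0.0336% of all genes. An unadjusted p under 0.05 was reached by 4 of 38 members, STAT2 below control and ISG15, IFITM2 and IFI44 above it, against 7.87% of all genes. The sign of the log2 fold change was kept in 34 of 38 members and turned in IRF7, IFI35, TMEM173 and IFIT5. The corrected log2 fold changes had a median of -0.0033 and all 38 lay within 0.5 of 0. Both CBX7 libraries lay above both controls for 8 members and below both for 9, against 18.0% and 21.6% of all genes tested.

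**Figure D3:**
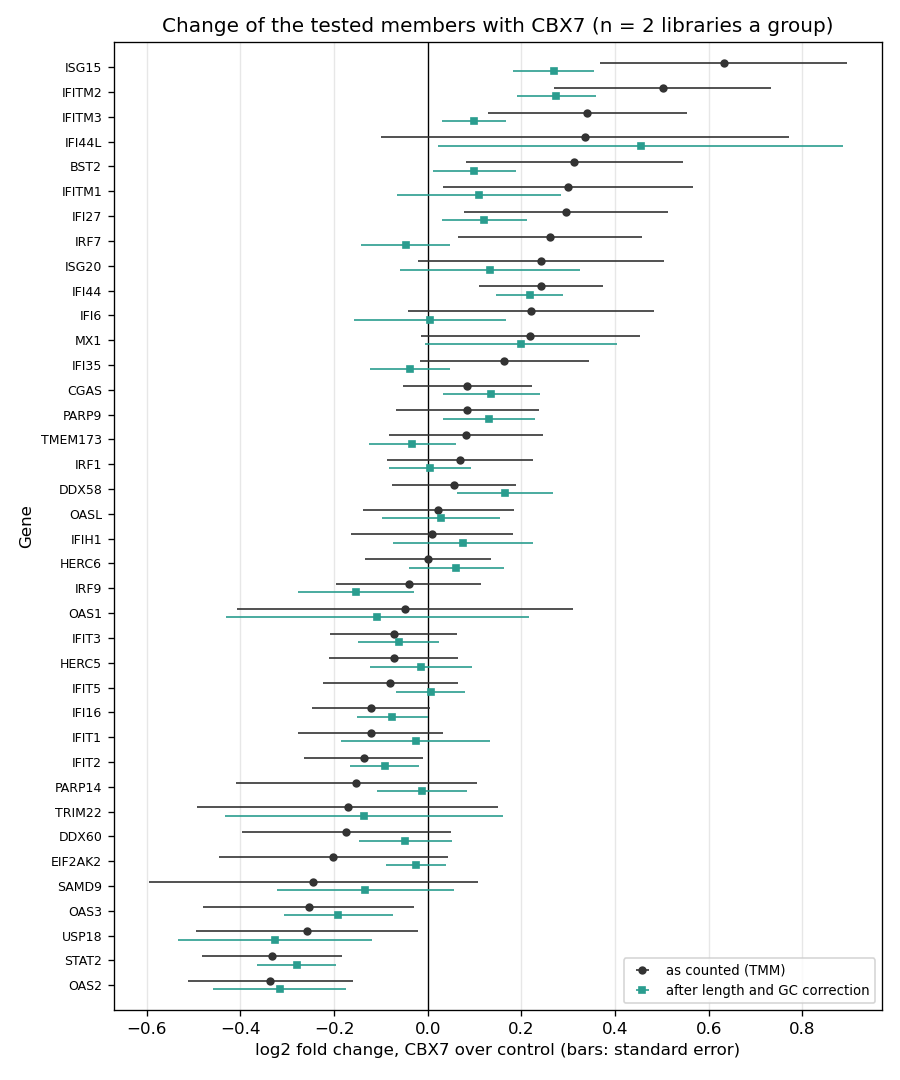
Log2 fold change of CBX7 over control for the 38 tested members with standard errors as bars (n = 2 libraries a group), as counted (black circles) and after the length and GC correction (green squares). Values as counted run from -0.34 for OAS2 to 0.63 for ISG15, and the corrected values lie closer to 0 for the short genes at the top.

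Membrane restriction factors were the most abundant class. IFITM3, an interferon-induced membrane protein that hinders fusion of viruses with endosomes, had 525.4 and 475.4 TPM in control cells and 604.9 and 531.1 TPM in CBX7-overexpressing cells, above 98.3% of the genes tested. On the CPM scale its controls (145 and 128) and CBX7 libraries (205 and 139.5) overlapped, and the log2 fold change was 0.34 (SE 0.21), or 0.099 (SE 0.068) after the length and GC correction. BST2 (tetherin), which retains budding virions at the cell surface, had 125 and 104 CPM against 172 and 113 CPM, also overlapping, with a log2 fold change of 0.31 (SE 0.23), or 0.10 (SE 0.089) after the correction. For IFITM2 both CBX7 libraries (61.3 and 39.7 CPM) lay above both controls (37.6 and 33.7 CPM). Its log2 fold change was 0.50 (SE 0.23, unadjusted p = 0.0763, edgeR's quasi-likelihood test), and 0.27 (SE 0.084) after the length and GC correction. IFITM1 was the least abundant of the class, at 10.4 and 10.3 TPM in control cells and 12.2 and 11.1 TPM in CBX7-overexpressing cells. IFITM1, IFITM2 and IFITM3 are closely similar neighbours, and their counts were not whole in at least 1 library, so reads may have been split among them. Without CBX7 replicate 1 the log2 fold changes were 0.041 for IFITM3, -0.016 for BST2 and 0.16 for IFITM2, and without CBX7 replicate 2 they were 0.59, 0.58 and 0.78, so their size, and for BST2 the sign, depended on which CBX7 library was kept. All 4 genes of the class are 1001 bases or shorter in the deposited table.

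The ISG15 pathway attaches a ubiquitin-like protein to other proteins. ISG15, the modifier itself, had 259.7 and 217.9 TPM in control cells and 370.2 and 289.8 TPM in CBX7-overexpressing cells. In CPM it had 76.8 and 62.8 against 135 and 81.8, so the groups did not overlap, and CBX7 replicate 1 was far above the other 3 libraries. The log2 fold change of 0.63 (SE 0.26, unadjusted p = 0.0561 from edgeR's quasi-likelihood test) was the largest of any member tested and did not pass the adjusted threshold. After the length and GC correction it was 0.27 (SE 0.086), while it was 0.23 without CBX7 replicate 1 and 0.94 without CBX7 replicate 2. Among fits with all libraries, only one that pairs libraries by replicate number called ISG15 (adjusted p = 0.0157, edgeR's quasi-likelihood test). That pairing was not established. With the pairing and the correction together the adjusted p was 0.215 (edgeR's quasi-likelihood test). HERC5, the main ISG15 ligase, had 25.4 and 22.8 CPM in control cells and 23.2 and 22.6 CPM in CBX7-overexpressing cells. The related HERC6 had 18.8 and 18.6 CPM against 19.0 and 18.4 CPM. USP18, the protease that removes ISG15 and also restrains the interferon receptor, was low, at 3.10 and 2.86 CPM in control cells and 2.57 and 2.42 CPM in CBX7-overexpressing cells. Its CBX7 libraries lay below both controls with a log2 fold change of -0.26 (SE 0.24). The log2 fold changes of ISG15 and USP18 had opposite signs, and neither passed the adjusted threshold in this test. In TPM, ISG15 exceeded USP18 by 106 and 92.7 times in control cells and by 217 and 143.5 times in CBX7-overexpressing cells. ISG15 is much the shorter gene (637 against 1858 bases), and these ratios were not corrected for the length trend of CBX7 replicate 1.

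Sensors of nucleic acid were transcribed in all 4 libraries at levels from those of IFIH1, the lowest, to those of IFI16. IFI16, a nuclear DNA sensor, was the most abundant at 37.4 and 38.8 TPM in control cells and 32.3 and 36.0 TPM in CBX7-overexpressing cells. In CPM its controls were nearly equal at 58.4 and 58.5, and its CBX7 libraries at 53.6 and 53.8 lay just below them. DDX58, which encodes the RNA sensor RIG-I, had 58.2 and 55.0 CPM against 56.7 and 61.0 CPM, with overlap. IFIH1, which encodes the sensor of long double-stranded RNA MDA5, was less abundant per length, at 3.36 and 3.20 TPM against 2.85 and 3.50 TPM. CGAS, the enzyme that makes the second messenger for STING from cytosolic DNA, had 18.0 and 18.5 CPM in control cells and 20.04 and 18.66 CPM in CBX7-overexpressing cells, a log2 fold change of 0.08 (SE 0.14). TMEM173, the gene of STING, had 21.7 and 18.7 CPM against 23.2 and 19.5 CPM. Both genes of the DNA-sensing pair were thus transcribed in all 4 libraries. DDX60, a helicase linked to RIG-I signalling, had 19.7 and 20.9 CPM in control cells, 14.3 in CBX7 replicate 1 and 21.7 in CBX7 replicate 2, and its log2 fold change was -0.17 (SE 0.22). None of the 6 sensors had an unadjusted p under 0.05, with or without the length and GC correction (edgeR's quasi-likelihood test).

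IFIT genes encode a family of antiviral proteins, of which some bind viral RNA by its end. IFIT3 was the most abundant, at 31.04 and 29.03 TPM in control cells and 24.1 and 29.3 TPM in CBX7-overexpressing cells. IFIT1 had 28.99 and 23.7 TPM against 21.7 and 24.4 TPM, and IFIT5 14.0 and 15.0 TPM against 10.5 and 15.4 TPM. IFIT2 alone did not overlap between the groups, at 42.5 and 43.7 CPM in control cells and 38.7 and 39.7 CPM in CBX7-overexpressing cells, with a log2 fold change of -0.14 (SE 0.13). The log2 fold changes of all 4 were negative and within 0.14 of 0, and that of IFIT5 was positive at 0.0061 after the length and GC correction.

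OAS enzymes make the activator of RNase L when they meet double-stranded RNA, and EIF2AK2 encodes PKR, the kinase that stops translation on the same signal. EIF2AK2 had 127 and 149 CPM in control cells, 92.6 in CBX7 replicate 1 and 147 in CBX7 replicate 2. OAS3 showed the same picture, with 66.5 and 72.5 CPM in control cells, 46.1 in CBX7 replicate 1 and 70.5 in CBX7 replicate 2. Both are long genes (9975 and 6599 bases), and in both the lone low library was CBX7 replicate 1. OAS2 had 8.30 and 7.29 CPM in control cells and 6.05 and 6.31 CPM in CBX7-overexpressing cells, with no overlap. Its log2 fold change of -0.34 (SE 0.18, unadjusted p = 0.108 from edgeR's quasi-likelihood test) was the lowest of any member tested, and -0.32 (SE 0.14) after the correction. Its deposited TPM did not follow this order, with 3.55 and 3.57 for the controls but 2.61 and 4.65 for the CBX7 libraries. OAS1 was low and varied within each group, at 2.76 and 1.55 TPM against 3.68 and 2.10 TPM. The enzymatically inactive relative OASL had 24.4 and 21.2 CPM against 25.09 and 21.17 CPM. ISG20, a 3′ exonuclease, had 4.90 and 3.76 CPM in control cells and 5.96 and 4.30 CPM in CBX7-overexpressing cells, overlapping, with a log2 fold change of 0.24 (SE 0.26).

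The STAT and IRF factors relay the signal to DNA. STAT2, a subunit of ISGF3, had 31.7 and 32.7 CPM in control cells and 23.2 and 27.9 CPM in CBX7-overexpressing cells. Both CBX7 libraries were below both controls, and the log2 fold change was -0.33 (SE 0.15, unadjusted p = 0.0721) and -0.28 (SE 0.084, unadjusted p = 0.0191) after the length and GC correction, with adjusted p of 0.951 and 0.480 (edgeR's quasi-likelihood test). The log2 fold change of STAT2 was -0.20 without CBX7 replicate 1 and -0.47 without CBX7 replicate 2 (adjusted p = 0.000968 in the latter, edgeR's quasi-likelihood test, where 35.5% of all genes were called, and at least 0.277 in the other alternatives). IRF9, the DNA-binding part of ISGF3, had 19.2 and 16.1 CPM against 17.6 and 16.7 CPM, with overlap, while its deposited TPM of 22.8 and 18.3 in control cells lay above the 14.2 and 17.3 of the CBX7 libraries. IRF1 had 29.6 and 26.5 CPM against 32.1 and 26.8 CPM. IRF7, which drives transcription of interferon genes, had 14.0 and 13.5 CPM in control cells, 19.1 in CBX7 replicate 1 and 13.9 in CBX7 replicate 2. Its log2 fold change was 0.26 (SE 0.20) as counted and -0.047 (SE 0.095) after the correction, so its sign depended on that step. It was 0.013 without CBX7 replicate 1 and 0.47 without CBX7 replicate 2.

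The MX and replication effectors were the lowest class, and 3 of its 5 genes were too low to test. RSAD2 (viperin), a radical enzyme that makes a chain-terminating nucleotide, had 1, 5, 5 and 4 counts in control replicates 1 and 2 and CBX7 replicates 1 and 2. CMPK2, its neighbour on chromosome 2, had 3, 7, 7 and 1 counts in the same order, and MX2, which blocks nuclear entry of viral genomes, had 5, 7, 9 and 3 counts. In each of these genes the groups overlapped and no fold is given. MX1, a GTPase active against many RNA viruses, was also low, at 2.77 and 2.48 CPM in control cells and 3.06 and 3.04 CPM in CBX7-overexpressing cells. Its CBX7 libraries lay above both controls by a log2 fold change of 0.22 (SE 0.23). SAMD9, a long gene of 6754 bases whose product restricts poxviruses, had 17.7 and 21.9 CPM in control cells, 10.8 in CBX7 replicate 1 and 22.6 in CBX7 replicate 2, a log2 fold change of -0.24 (SE 0.35).

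Among the other interferon-stimulated genes, IFI27, a mitochondrial and nuclear envelope protein, had 152.9 and 144.1 TPM in control cells and 175.9 and 149.1 TPM in CBX7-overexpressing cells. In CPM the groups overlapped and the log2 fold change was 0.30 (SE 0.22), or 0.12 (SE 0.090) after the length and GC correction. IFI44 was unlike its neighbour IFI44L in both level and spread. IFI44 had 54.0 and 55.6 CPM in control cells and 67.7 and 61.9 CPM in CBX7-overexpressing cells, with no overlap. IFI44L had 1.30 and 0.667 CPM in control cells and 1.08 and 1.43 CPM in CBX7-overexpressing cells, and its log2 fold change of 0.34 (SE 0.44) was the least precise of the members tested. PARP9 and PARP14, of the ADP-ribosyltransferase family, had 23.9 and 25.9 CPM against 24.1 and 28.7 CPM, and 63.6 and 73.5 CPM against 46.5 and 76.9 CPM. IFI35 had 21.0 and 19.2 CPM against 25.6 and 19.4 CPM, and IFI6, which protects cells from flavivirus replication, 4.57 and 4.05 CPM against 6.004 and 4.028 CPM. TRIM22, a RING-finger restriction factor, had 3.29 and 2.48 CPM in control cells and 2.03 and 3.13 CPM in CBX7-overexpressing cells, a log2 fold change of -0.17 (SE 0.32). Each of these last 5 genes overlapped between the groups.

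XAF1, whose product binds the apoptosis inhibitor XIAP, was found almost only in control cells, at counts too low for the filter. It had 9 and 12 counts in the control libraries and 0 and 1 in the CBX7 libraries. The ratio of its summed control counts (21) to its CBX7 count (1), scaled by library size, was 21.8 with an exact 95% counting interval of 3.5 to 900.0, which leaves out the spread between libraries. When genes with low counts were kept, XAF1 was the single member with an adjusted p under 0.05 (0.0437, edgeR's quasi-likelihood test), and over all genes that fit called 265 (1.01%) in place of 3. Its CBX7 libraries lay below both controls, as did 14.8% of the genes tested in log2 CPM, a set without XAF1. No such share was taken over genes with low counts. XAF1 was singled out after its values were seen. Its deposited TPM of 0.34 in control replicate 1 and 1.40 in control replicate 2 differed more than its 9 and 12 counts, so its place in the order of TPM levels is uncertain.

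Of the 42 members, 20 lie within 200000 bases of another member, in 8 groups of neighbours (GENCODE release 29 on GRCh38; the submitters' processing notes name hg19). Neighbours did not always share a level. On chromosome 1 from 78619922 to 78664078, IFI44 exceeded IFI44L in TPM by 87.7 and 133 times in control cells and by 82.4 and 123 times in CBX7-overexpressing cells. On chromosome 11 from 307631 to 327537, IFITM3 exceeded IFITM1 by 50.3 and 46.2 times in control cells and by 49.5 and 47.9 times in CBX7-overexpressing cells, so this ratio held in every library. A group on chromosome 12 from 112906777 to 113011723 holds OAS1, OAS2 and OAS3. There OAS3 exceeded OAS2 in TPM by 5.05 and 5.60 times in control cells and by 4.31 and 4.33 times in CBX7-overexpressing cells. The deposited TPM of OAS2 did not follow its CPM, so the TPM ratio cannot settle whether the groups differ. OAS3 exceeded OAS1 by 6.5 and 12.9 times in control cells and by 3.06 and 9.58 times in CBX7-overexpressing cells, with overlap. The 4 IFIT genes, on chromosome 10 from 89283694 to 89421001, lay within a narrow range of 14.5 to 30.04 TPM for the mean of the control libraries. IFITM1 and IFITM2 overlap in the annotation, as do CMPK2 and RSAD2 on opposite strands, and whether the counting used strand is not given in the sources used here.

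Upstream of these genes, the 10 interferon ligand genes examined had few counts or none. Of 10 ligand genes, 8 (IFNB1, IFNA1, IFNA2, IFNK, IFNW1, IFNG, IFNL2 and IFNL3) had 0 counts in all 4 libraries, which allows up to 0.124 to 0.143 CPM in a library. IFNL1 had 1 count in control replicate 2 and 0 in the others. IFNE, an epithelial interferon, had 8 and 7 counts in control cells and 2 and 5 counts in CBX7-overexpressing cells. The CBX7 libraries thus had fewer IFNE counts than both controls, at counts too low to test. For the ligands without counts, a difference smaller than the stated limit was not detectable at this depth. The receptor and its kinases were transcribed throughout. IFNAR1 had 62.8 and 62.4 CPM in control cells and 55.1 and 60.7 CPM in CBX7-overexpressing cells, a log2 fold change of -0.11 (SE 0.13) that was 0.036 after the length and GC correction. IFNAR2 had 19.8 and 21.5 CPM against 19.9 and 17.6 CPM, a log2 fold change of -0.14 (SE 0.15). The lambda interferon receptor IFNLR1 was low, between 0.17 and 0.54 TPM.

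JAK1 had 193 and 211 CPM in control cells and 138 and 185 CPM in CBX7-overexpressing cells, with no overlap and a log2 fold change of -0.32 (SE 0.18). TYK2 had 63.0 and 58.9 CPM against 55.9 and 55.5 CPM, a log2 fold change of -0.13 (SE 0.13). In CPM, both JAK1 and TYK2 lay lower in both CBX7 libraries than in either control, as did IFNAR1 and 14.8% of all genes tested. Of 44 pathway genes tested, 5 (11.4%) lay lower in this way and 4 (9.09%) higher, against 15.4% of all genes higher. In deposited TPM JAK1 and TYK2 overlapped between the groups. The log2 fold change of JAK1 was -0.12 without CBX7 replicate 1 and -0.55 without CBX7 replicate 2. Of 9 tested genes for other sensors and for the adaptors and kinases below them (MAVS, TBK1, IRF3 and others), 2 had positive and 7 had negative log2 fold changes, between -0.18 and 0.21, and none had an unadjusted p under 0.05 (edgeR's quasi-likelihood test). After the length and GC correction 1 of the 9 did, against 7.87% of all genes tested. It was the adaptor gene TICAM1, singled out after its values were seen, at -0.27 (unadjusted p = 0.0218, edgeR's quasi-likelihood test). IRF3, which switches on interferon transcription once phosphorylated, was the most abundant of them, at 68.9 and 73.7 TPM in control cells and 76.0 and 79.0 TPM in CBX7-overexpressing cells. The feedback inhibitor SOCS3 had 19.0 and 18.2 TPM against 18.51 and 20.01 TPM, and SOCS1 was low at 1.49 and 1.31 TPM against 2.10 and 1.56 TPM. The DNA sensor AIM2 and the Z-nucleic acid sensor ZBP1 had at most 1 count in any library, unlike IFI16 and CGAS.

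**Figure D4:**
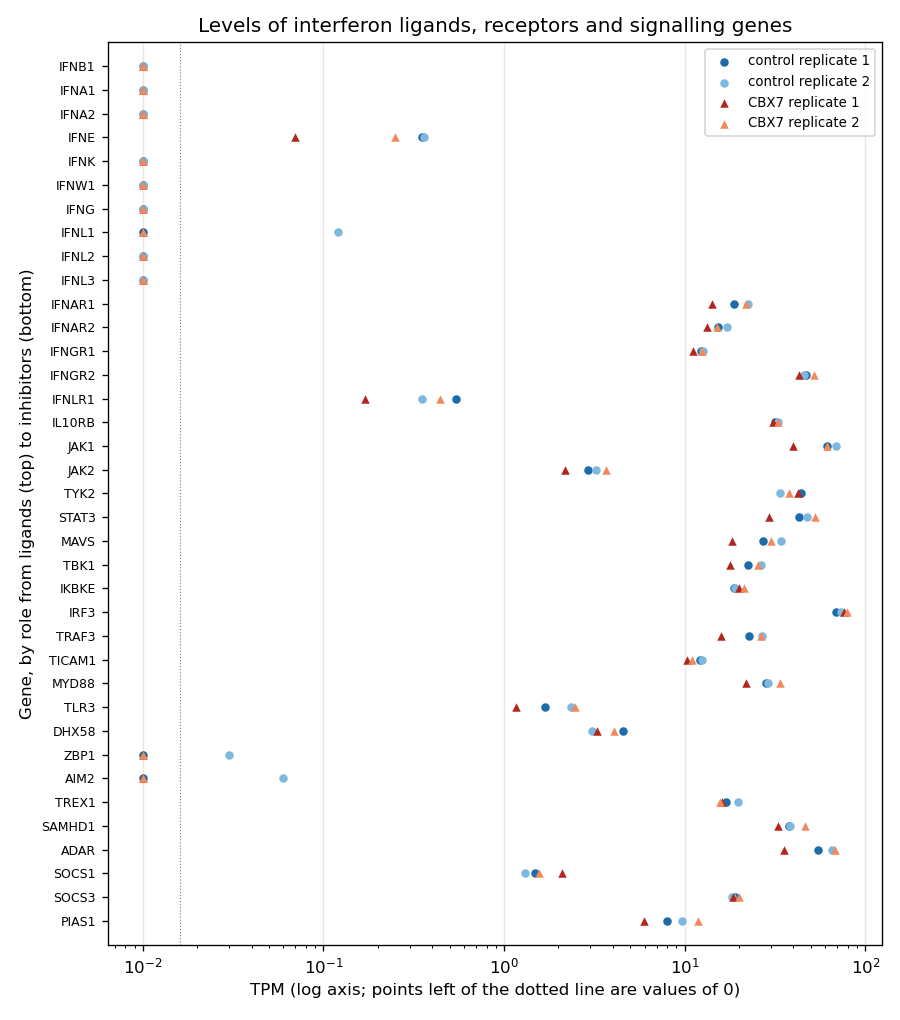
Deposited TPM (log axis) of 37 interferon ligands, receptors, signalling genes, other sensors, nucleic acid clearance and editing genes and inhibitors in each of 4 libraries, with circles for control and triangles for CBX7. Points left of the dotted line are values of 0, which hold 8 of the 10 ligands in every library, while receptor subunits other than IFNLR1 and the receptor kinases lie above 1 TPM.

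Of 56 further pathway genes, 44 passed the filter and 0 had an adjusted p under 0.05 (edgeR's quasi-likelihood test, 0.0202% of all genes), with 1 (2.27%) at an unadjusted p under 0.05 against 4.74% of all genes. DESeq2's Wald test gave 0 and 1 (2.27%), against 0.451% and 2.88% of all genes. After the length and GC correction 0 passed the adjusted threshold and 6 of 44 (13.6%) had an unadjusted p under 0.05, against 7.87% of all genes, 4 of them lower (JAK1 and TYK2 among these) and 2 higher (LY6E among these). Their uncorrected log2 fold changes were positive for 16 and negative for 28, with a median of -0.050. The gene at an unadjusted p under 0.05 was LY6E, an interferon-induced surface protein that limits coronavirus entry. It had 71.4 and 65.6 CPM in control cells and 136 and 98.0 CPM in CBX7-overexpressing cells. Both CBX7 libraries lay above both controls, and the log2 fold change was 0.77 (SE 0.19, adjusted p = 0.618) before and 0.47 (SE 0.068, adjusted p = 0.142) after the length and GC correction (edgeR's quasi-likelihood test). With all libraries, its adjusted p was 0.00456 with no filter (edgeR's quasi-likelihood test). In the same test it was 0.000489 with the replicate block and 0.0262 with that block and the correction. Those fits called 1.01%, 2.43% and 1.25% of all genes, and the block assumes a pairing that was not established. DESeq2's Wald test gave an adjusted p of 0.106. LY6E exceeded every tested member in the size of its log2 fold change as counted. With 1 library left out at a time it lay between 0.52 and 0.99. Its adjusted p was 6.61e-18 without CBX7 replicate 2 and 0.000309 without CBX7 replicate 1, in fits that called 35.5% and 2.59% of all genes. It was 0.999 without control replicate 1 and 1.0 without control replicate 2 (edgeR's quasi-likelihood test, which assumes that a lone library varies like the other group).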

How the data were processed

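Gene expression was measured by RNA-seq in 2 control and 2 CBX7-overexpressing T24 libraries. The authors deposited, per gene and library, an expected count that need not be whole and a TPM value, with gene length and their group mean TPM. The deposited table also holds the authors' own comparison (a ratio, its log2 value and p-values), which was not used. The submitters' processing notes name cutadapt 1.9.1, HISAT2 2.0.1, HTSeq 0.6.1, DESeq2 and hg19, with no role or order, and counts that are not whole (14 members) leave the counting step unclear. Libraries were random-primed and amplified by PCR.

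Expected counts were rounded, genes were kept by filterByExpr, and TMM-scaled libraries were compared in edgeR 4.0.16 (R 4.3.3; glmQLFit and glmQLFTest at default settings, condition only) with Benjamini-Hochberg adjustment over 14862 genes. SE was taken from the fold change and its F statistic. The length and GC correction used offsets from natural splines with 5 degrees of freedom per library, with GC from GENCODE release 29 (known for 99.0% of genes tested). The other alternatives were DESeq2 1.42.0 (size factors, Wald test), no filter, the newer quasi-likelihood form, a replicate block and each library left out. Promoters came from RefSeq. A pathway gene of the list is counted but not reported here. Fits were checked on simulated counts. Log2 fold changes are given for CBX7, members with an unadjusted p under 0.05 in the test without the correction (0 members), the 5 most abundant members, the largest rise and fall in each role class, and fixed pathway genes. Members, lists and tests were chosen with earlier results of these data known. Within each group the libraries were not copies of each other (chi-square per degree of freedom 6.06 for the control pair, 54.7 for the CBX7 pair).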

Additional observations from a re-analysis of the deposited data

How the results depend on the processing

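The log2 fold change of CBX7 passed the threshold in all alternatives and was 7.27 to 7.44 with each library left out. Genes called numbered 3 with TMM, DESeq2's size factors or the newer quasi-likelihood form, 5 with the length and GC correction, 265 with no filter and 67 by the Wald test of DESeq2, and with each library left out from 45 to 5491, the latter without CBX7 replicate 2. Without a block and with all libraries, members called stayed at 0 except for 1 (XAF1) with no filter. With each library left out they ranged from 0 to 15, the 15 without CBX7 replicate 2, when CBX7 replicate 1 alone stood for the group. Members at an unadjusted p under 0.05 were 3 with no filter (7.14%, against 5.21% of all genes), 2 with DESeq2's Wald test (5.26% against 2.88%), 4 with the length and GC correction (10.5% against 7.87%) and 0 to 18 with each library left out, the 18 (46.2% against 43.0%) without CBX7 replicate 2. The median log2 fold change of the members was -0.043 to 0.074 with each library left out. Pathway genes called were 1 with no filter (LY6E) and 0 to 11 with each library left out, the 11 without CBX7 replicate 2 and 1 without CBX7 replicate 1. In the fit without CBX7 replicate 2, the share called was 25.0% of 44 pathway genes, below the 35.5% of all genes. A lone library was assumed to vary like the other group.

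The length and GC correction turned the sign of 4 of 38 members (IRF7 to -0.047, IFI35 to -0.038, TMEM173 to -0.033 and IFIT5 to 0.0061) and, among named pathway genes, of IFNAR1 to 0.036. Of the genes named by rule, beside those whose corrected values stand in the report, it also moved by over 1.5 times ISG20 (to 0.13), SAMD9 (to -0.13), DDX60 (to -0.048), IFIT2 (to -0.091), CGAS (to 0.14) and TYK2 (to -0.21). With each library left out, log2 fold changes spanned -0.016 to 0.58 for BST2, -0.0096 to 0.55 for IFI27, -0.013 to 0.45 for ISG20, -0.87 to 0.20 for SAMD9, -0.50 to 0.10 for DDX60, -0.054 to 0.90 for IFI44L and -0.52 to 0.11 for TRIM22. With no change of sign, but by over 1.5 times, they also moved for IRF7 (0.013 to 0.47), CGAS (0.037 to 0.13), MX1 (0.14 to 0.30), IFNAR1 (-0.19 to -0.040), IFNAR2 (-0.22 to -0.051) and TYK2 (-0.18 to -0.085). The cause was not tested. The wider promoter motif, with 1 or 2 bases between the copies, matched 28 of 32 members and 2139 of all genes, against 22 and 1195.

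The groups share replicate numbers, which nothing ties to a common batch. Over the genes tested, deviations of control replicate 1 and CBX7 replicate 1 from their group means correlated at 0.305. With 2 libraries a group those of replicate 2 mirror them and add no evidence, so the pairing was not established. With the replicate block 361 genes, 1 member (ISG15, adjusted p = 0.0157 in edgeR, and up to 0.9502 in other alternatives with all libraries) and 1 pathway gene (LY6E) were called, and 3 members had an unadjusted p under 0.05 (7.89% against 10.2% of all genes). The replicate block together with that correction called 186 genes, 0 members and 1 pathway gene, with 4 members at an unadjusted p under 0.05 (10.5% against 11.8%), IRF7 at -0.046 and IFNAR1 at 0.033. Prior degrees of freedom were infinite with no filter and with the block, and 3.61 with the filter, TMM and no block. Depth limits XAF1, MX2, CMPK2, RSAD2 and the interferon genes, at 12 counts or fewer a library.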
